A study of Homo sapiens with 9 samples.

Results

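The EGF receptor family and its ligands were followed as 10 genes taken by symbol from the deposited table of gene counts, out of 60240 genes in all. They are the receptor genes EGFR, ERBB2 and ERBB3, the ligand genes AREG, EREG, HBEGF, TGFA, BTC and NRG1, and the inhibitor gene ERRFI1. All 10 passed the filter on low counts and were tested among 17058 genes. Messenger RNA had been sequenced from 9 samples of MDA-MB-231, a widely used line of human breast cancer cells of the basal type that serves as a model of triple negative disease, which lacks high levels of the classical oestrogen receptor. Every sample carried a lentiviral vector switched on by doxycycline and received doxycycline at 100 ng/ml for 3 days. In 3 samples the vector encoded GFP, luciferase and oestrogen receptor beta isoform 1 and the ligand CLI was added for 24 h (ERβ1 cells with CLI). In 3 others it encoded the same and no CLI was added (ERβ1 cells), and in 3 it encoded GFP and luciferase alone (control cells). The study asked how the receptor, with and without ligand, alters expression in these cells. No control cells received CLI, the labels do not say whether transduced cells were a pool or a clone, nor whether replicates came from separate cultures. The p-values therefore measure the spread between these samples, which may be technical, and the receptor cannot be told apart from any other difference between the transduced populations. In RNA from whole cultures, fewer cells with a transcript and less of it per cell cannot be told apart.

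The EGF receptor (EGFR) is a membrane tyrosine kinase that pairs with itself or with its relatives ERBB2 and ERBB3 when a ligand binds. ERBB2 binds no known ligand, ERBB3 has a weak kinase and signals through a partner, and the pairs switch on the RAS-ERK and PI3K pathways. Ligands are made as membrane-bound precursors, and most are released by ADAM proteases. AREG, EREG, HBEGF, TGFA and BTC encode ligands that bind EGFR, and NRG1 encodes neuregulin, which binds ERBB3 and ERBB4. ERRFI1 encodes MIG6, an intracellular protein that binds the kinase domain of EGFR and restrains it, and its RNA is itself induced by EGFR signalling. EGFR is often abundant in basal-type breast cancer cells.

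Libraries held 39902456 to 55387538 counts, the ERβ1 and ERβ1 with CLI libraries numbered 2 being the deepest of their groups. ESR2, the transduced gene, averaged 84.2 ± 3.09 CPM (counts per 1e6, library sizes scaled by TMM) in ERβ1 cells with CLI, 117 ± 1.51 CPM in ERβ1 cells and 0.137 ± 0.00454 CPM in control cells (SD, n = 3 each), so every library matched its vector. Of 8 markers of basal-like and mesenchymal breast cancer cells, 6 were tested. Their summed level was 5779 to 6144 CPM in ERβ1 cells with CLI, 6005 to 6192 CPM in ERβ1 cells and 7183 to 7588 CPM in control cells. It was carried by VIM, AXL, CD44, FOSL1 and CAV1. The basal keratin gene KRT5 was at 0 in all 9 libraries. KRT14 was at 0 in control cells, and KRT17 was at most 1.34 CPM in any library. Of these markers 5 fell with CLI and 4 in ERβ1 cells, each against control, where 13.1% and 10.7% of all genes tested were called lower. Of 10 luminal epithelial markers, 7 were tested, with sums of 269 to 383 CPM in ERβ1 cells with CLI, 235 to 344 CPM in ERβ1 cells and 340 to 374 CPM in control cells, nearly all of it KRT19. Against control, 2 luminal markers rose and 3 fell with CLI, and 2 rose and 2 fell in ERβ1 cells, where 13.3% and 10.7% of all genes were called higher. CDH1, the E-cadherin gene, averaged 2.54 CPM with CLI, 1.33 CPM in ERβ1 cells and 0.120 CPM in control cells, and ELF3 averaged 3.07, 2.21 and 0.375 CPM in the same groups; both rose in both receptor groups. SPDEF and AGR2 fell in both, GATA3 fell with CLI, and AGR2 was at 0 in all 6 receptor libraries. ESR1 stood at 0 to 0.765 CPM in 8 libraries and at 5.98 CPM in ERβ1 cells with CLI replicate 2. Of 7 fibroblast markers 4 were tested, with sums of 27.5 to 40.6, 26.2 to 36.3 and 22.7 to 30.8 CPM in ERβ1 cells with CLI, ERβ1 cells and control cells, and DCN was at 0 in control cells. LUM and COL1A1 rose in both receptor groups against control, COL1A1 by 0.90 with CLI and 0.65 in ERβ1 cells on the log2 scale, and LUM averaged 0.535, 0.311 and 0.0453 CPM in ERβ1 cells with CLI, ERβ1 cells and control cells. Of 5 blood cell markers 2 were tested, with sums of 77.6 to 88.0, 88.8 to 94.5 and 80.2 to 82.9 CPM in the same groups, nearly all of it CD68, and HBB was at 0 throughout. LYZ rose in both receptor groups against control, averaging 0.556, 0.353 and 0.0613 CPM in those 3 groups. The part of these markers in the results was not tested.

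Members differed widely in level. Scaled by the merged exon length of the gene in GENCODE 29, the inhibitor gene ERRFI1 was the highest member, with a level of 97.5 ± 1.63 CPM per kb in ERβ1 cells with CLI, 84.5 ± 1.82 CPM per kb in ERβ1 cells and 96.0 ± 0.797 CPM per kb in control cells (SD, n = 3 each). EGFR followed with levels of 45.3 ± 1.36, 44.7 ± 0.574 and 47.8 ± 1.09 CPM per kb in those groups. HBEGF was the highest ligand gene in every group, at 22.2 ± 0.763 CPM per kb in ERβ1 cells with CLI, 26.1 ± 1.19 CPM per kb in ERβ1 cells and 22.9 ± 0.522 CPM per kb in control cells. TGFA stood above AREG in both receptor groups (21.1 ± 0.329 against 16.1 ± 0.797 CPM per kb with CLI, 19.9 ± 0.322 against 16.4 ± 0.954 CPM per kb without), while in control cells TGFA stood just below AREG, at 15.1 ± 0.675 against 15.9 ± 0.23 CPM per kb. ERBB2 came next, at 10.2 ± 1.84, 9.98 ± 1.397 and 11.3 ± 1.16 CPM per kb in ERβ1 cells with CLI, ERβ1 cells and control cells. NRG1, EREG, ERBB3 and BTC were all below 3 CPM per kb on average in each group. Neighbours in this order did not overlap between libraries in control cells, but NRG1 and EREG overlapped with CLI, as did BTC and ERBB3, and ERBB3 overlapped EREG and BTC in ERβ1 cells. The scale is approximate, since which transcripts were used is not in these files.

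**Figure D1:**
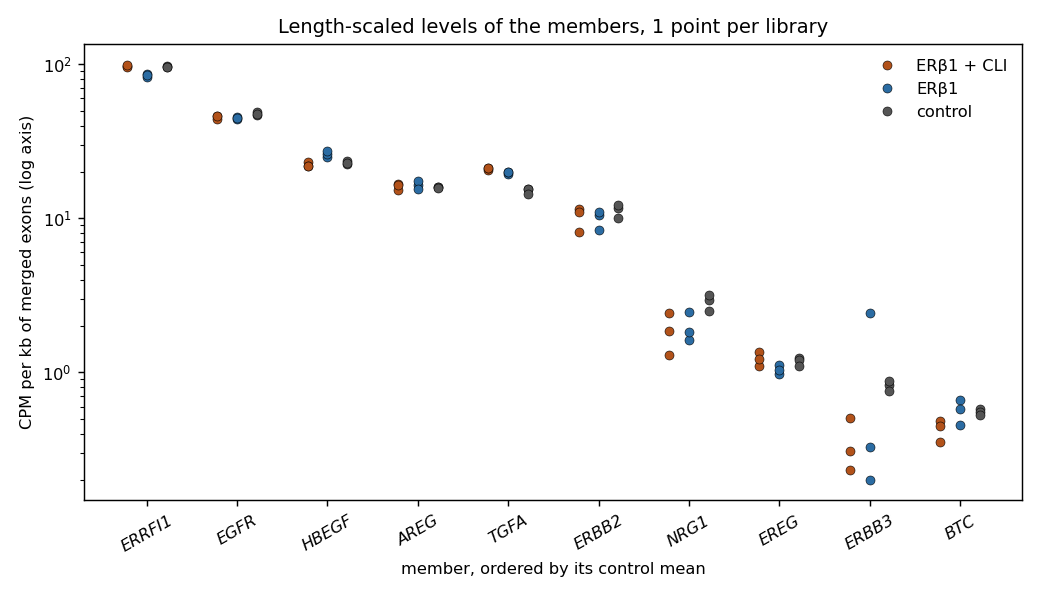
Level of each member in CPM per kb of merged exons (log axis), 1 point per library, with ERβ1 cells with CLI, ERβ1 cells and control cells side by side. ERRFI1 and EGFR are highest in every group, and only ERBB3 has a library far from the others of its group, ERβ1 replicate 3.

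The upstream sequences of 4 members are given. HBEGF and ERRFI1 are included because they changed in opposite directions in both comparisons with ERβ1 cells. Those comparisons share the ERβ1 libraries, with opposite sign. AREG and EREG, neighbours on chromosome 4, carry the motif matches found near ligand genes. Sequences are from RefSeq, build GRCh38.p14, which held promoter entries for 8 of the 10 members, and each runs 5′ to 3′ on the strand of the gene and ends at its annotated start, without bases that GENCODE 29 places inside the gene. Capitals mark a match to the oestrogen response element GGTCANNNTGACC, to its single arm AGGTCA, to the AP-1 site TGANTCA or to the cAMP response element TGACGTCA, each searched on both strands. The arm and the full element share the run GGTCA, so one stretch can match both.
ERRFI1 (chr1:8026310-8026559, minus strand): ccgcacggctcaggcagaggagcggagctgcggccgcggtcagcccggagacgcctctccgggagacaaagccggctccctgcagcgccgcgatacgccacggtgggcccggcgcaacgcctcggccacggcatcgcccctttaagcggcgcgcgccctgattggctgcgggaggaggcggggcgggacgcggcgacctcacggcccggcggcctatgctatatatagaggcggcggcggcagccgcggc
HBEGF (chr5:140346632-140346853, minus strand): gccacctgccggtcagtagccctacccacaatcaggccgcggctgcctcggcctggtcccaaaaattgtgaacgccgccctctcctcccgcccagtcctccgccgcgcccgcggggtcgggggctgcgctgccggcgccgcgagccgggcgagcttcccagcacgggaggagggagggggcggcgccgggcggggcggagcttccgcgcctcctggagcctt
AREG (chr4:74444886-74445133, plus strand): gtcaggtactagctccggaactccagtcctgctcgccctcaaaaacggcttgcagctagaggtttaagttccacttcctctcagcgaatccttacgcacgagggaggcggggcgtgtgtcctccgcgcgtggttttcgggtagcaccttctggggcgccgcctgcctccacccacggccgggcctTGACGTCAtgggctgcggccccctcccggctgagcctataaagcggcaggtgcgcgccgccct
EREG (chr4:74364895-74365142, plus strand): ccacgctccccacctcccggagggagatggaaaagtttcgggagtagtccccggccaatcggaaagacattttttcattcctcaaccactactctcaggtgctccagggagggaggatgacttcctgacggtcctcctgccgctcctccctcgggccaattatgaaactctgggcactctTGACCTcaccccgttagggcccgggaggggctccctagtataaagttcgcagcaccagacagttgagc

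In the 250 bases before the RefSeq start, no window of ERRFI1, HBEGF, TGFA or BTC held any of these motifs. AREG held a cAMP response element 65 to 58 bases before its start, a motif present in 1.65% of 35116 windows of the same length. EREG held the single arm of the oestrogen response element 70 to 65 bases before its start, as did 12.1% of windows. The AP-1 site was found once before ERBB2 and 2 times before the downstream start of EGFR, and 6.57% of windows held it. The full oestrogen response element was in no window of the 8 members searched and in 0.0399% of all windows. These matches describe letters in these windows alone.

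Counted together, 2 members rose and 1 fell of 10 in ERβ1 cells against control, where 21.4% of all genes tested were called, 10.7% in each direction. With CLI against ERβ1 cells 1 rose and 1 fell, where 1.47% of all genes were called, 1.04% higher and 0.428% lower. With the replicate block 104 genes were higher and 32 lower in that comparison, and within the 6 receptor libraries 60 and 6, against 178 and 73 without it. With CLI against control 1 rose and 0 fell, where 26.5% of genes were called, 13.3% higher and 13.1% lower. At an unadjusted edgeR p under 0.05, EGFR and NRG1 were lower in that comparison and in ERβ1 cells against control, though neither passed the adjusted threshold. The share of all genes at that unadjusted threshold is not given here. DESeq2 called 1 of them, NRG1, with CLI against control, where the share of all genes that DESeq2 called is not given either. Groups did not overlap for 5 members in ERβ1 cells against control, 3 with CLI against ERβ1 cells and 5 with CLI against control, where 39.6%, 18.8% and 41.7% of all genes did not overlap. The median log2 fold change over the 10 members was -0.03, -0.01 and -0.06 in the 3 comparisons, where that over all genes rounded to 0.00 in each. No member changed by as much as 2-fold in a called comparison.

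**Figure D2:**
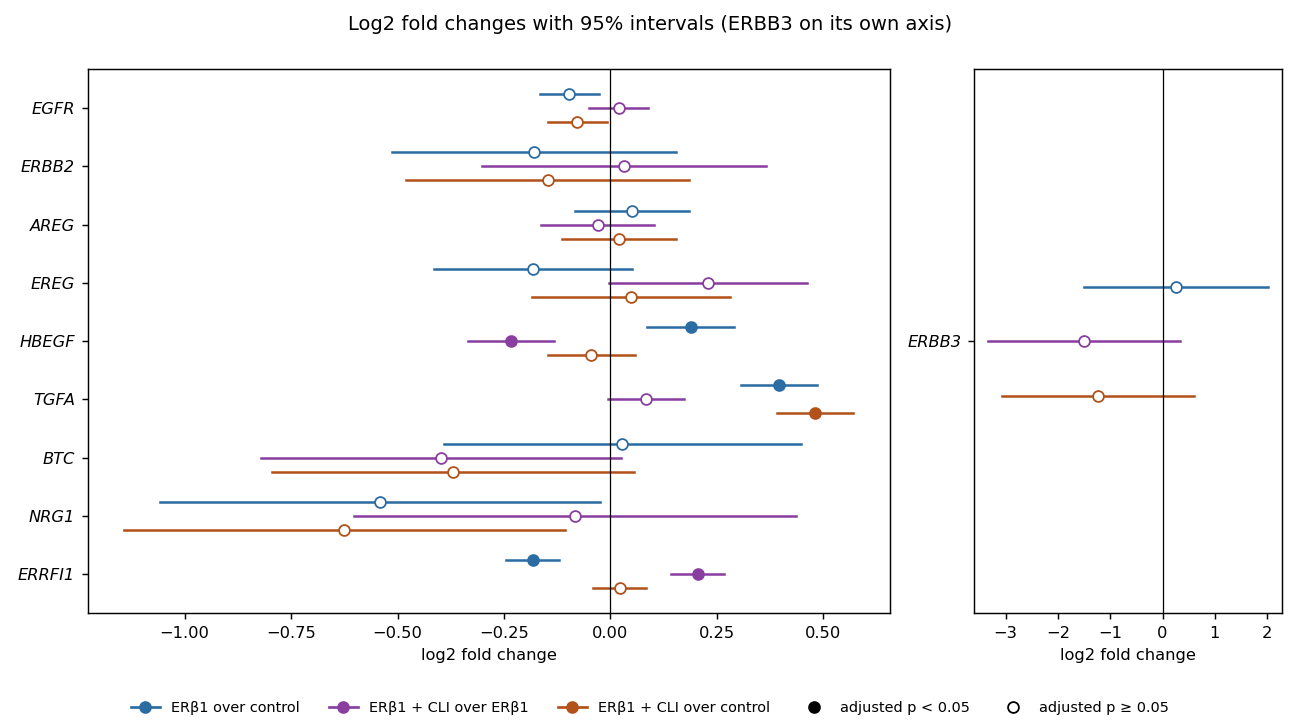
Log2 fold change of each member with its 95% interval for ERβ1 cells over control, ERβ1 cells with CLI over ERβ1 cells and ERβ1 cells with CLI over control, with ERBB3 on its own axis; filled points have an adjusted p under 0.05. HBEGF and ERRFI1 change sign between the first and second comparisons, which share the ERβ1 libraries. TGFA lies at 0.40 and 0.48 against control, and the interval of ERBB3 runs from -1.51 to 2.02 in ERβ1 cells.

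Of the receptor genes, none passed the test in any comparison. EGFR (ENSG00000146648, chromosome 7, 55019021 to 55211628, plus strand, GRCh38) had 573, 548 and 580.5 CPM in ERβ1 cells with CLI, 552, 567 and 559.9 CPM in ERβ1 cells and 614, 588 and 593 CPM in control cells. Every receptor library was below every control library, while the receptor groups overlapped. The difference was small, a log2 fold change of -0.10 ± 0.03 (SE; 95% interval -0.17 to -0.03) in ERβ1 cells against control (edgeR adjusted p = 0.0531) and -0.08 ± 0.03 (-0.15 to -0.01) with CLI against control (edgeR adjusted p = 0.0977). DESeq2 called the difference in ERβ1 cells, at the same size (adjusted p = 0.0241), as did edgeR without ERβ1 with CLI replicate 2 (adjusted p = 0.0404). Other settings went the other way. Leaving out 1 library gave edgeR adjusted p of up to 0.185, upper quartile scaling gave 0.104 and no filter gave 0.173. CLI itself gave 0.02 (-0.05 to 0.09).

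ERBB2 (chromosome 17, 39687914 to 39730426, plus strand), the ligandless partner, had 119, 83.7 and 113 CPM in ERβ1 cells with CLI, 108, 86.7 and 114 CPM in ERβ1 cells and 103, 121 and 126 CPM in control cells. The lowest library of each receptor group was that numbered 2, and the groups overlapped. The log2 fold change in ERβ1 cells against control was -0.18, with an interval of -0.51 to 0.15 (edgeR adjusted p = 0.441). Sizes within that interval were not excluded. The 3′ end of ERBB2 overlaps MIEN1 on the other strand, which stood at 19.5 to 22.9 CPM in the 9 libraries. The kit marks strand, but how the counting used strand is not stated.

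ERBB3 (chromosome 12, 56076799 to 56103505, plus strand), the neuregulin receptor, was the most variable member. It had 2.80, 2.09 and 4.56 CPM in ERβ1 cells with CLI, 2.95, 1.82 and 22.1 CPM in ERβ1 cells and 7.46, 7.98 and 6.83 CPM in control cells. Of the 6 receptor libraries, 5 were below every control library, and ERβ1 replicate 3 was above them all. With that library, the log2 fold change in ERβ1 cells against control was 0.26 ± 0.78 (SE; 95% interval -1.51 to 2.02; edgeR adjusted p = 0.858). Without it the value was -1.64 (edgeR adjusted p = 0.0167). With CLI against control it was -1.24 ± 0.81 (edgeR adjusted p = 0.307), and the same difference, -1.23, was called without ERβ1 replicate 3 (edgeR adjusted p = 0.0175), which adds to the shared spread but is not in that comparison. The direction of the CLI difference also hung on that library, at -1.50 with it and 0.40 without it (edgeR adjusted p = 0.503 and 0.729).

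By a rule that named the genes most like the pair of members whose group means spanned the widest range, 12616 genes averaging 2 CPM or more were ranked by Pearson's r of log2 CPM with ERBB3 over the 9 libraries, which share the groups. The nearest were ADCK5 (r = 0.91), MAN2B1 (0.90), AP001931.2 (0.89), SCHIP1 (0.89) and TMEM129 (0.89). SCHIP1 had 0.603, 1.54 and 2.05 CPM in ERβ1 cells with CLI, 0.778, 0.821 and 94.1 CPM in ERβ1 cells and 38.8, 80.3 and 41.6 CPM in control cells, so that ERβ1 replicate 3 again stood with or above control cells. SCHIP1 shares exons with the read-through gene IQCJ-SCHIP1, which stayed at 16.1 to 21.5 CPM in all libraries, and how their shared reads were divided is uncertain. ADCK5 had 6.28, 5.999 and 6.01 CPM in ERβ1 cells with CLI, 5.91, 6.21 and 12.2 CPM in ERβ1 cells and 10.03, 10.2 and 9.48 CPM in control cells. These correlations are a description of 9 libraries in which a single one carries much of the spread.

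**Figure D3:**
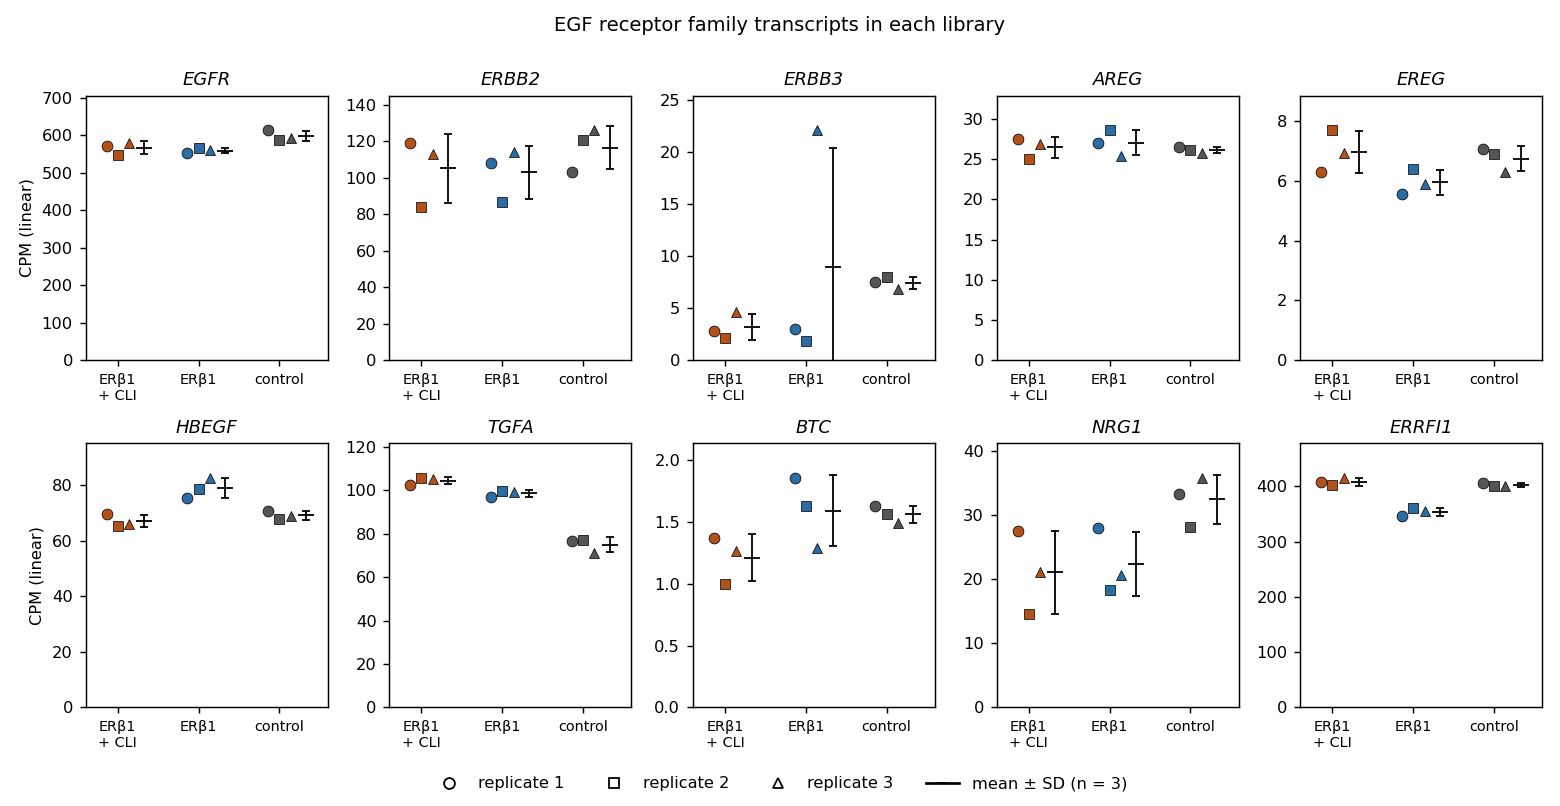
CPM of each member (linear axis from 0) in ERβ1 cells with CLI, ERβ1 cells and control cells, with a marker shape per replicate number and the mean ± SD of 3 libraries beside them; the lower SD bar of ERBB3 in ERβ1 cells runs below 0 and is not drawn there. TGFA is higher in all 6 receptor libraries than in any control library, HBEGF is high and ERRFI1 low in ERβ1 cells alone of the groups, and ERBB3 reaches 22.1 CPM in ERβ1 replicate 3.

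TGFA was the ligand gene with the smallest adjusted p against control in both receptor groups. TGFA (ENSG00000163235, chromosome 2, 70447280 to 70554193, minus strand), which encodes transforming growth factor alpha, had 103, 106 and 105 CPM in ERβ1 cells with CLI, 96.8, 99.7 and 99.3 CPM in ERβ1 cells and 76.5, 77.3 and 71.1 CPM in control cells. None of the 3 groups overlapped another. TGFA rose by a log2 fold change of 0.40 ± 0.04 (SE; 1.32-fold) in ERβ1 cells against control (edgeR adjusted p = 0.000203) and by 0.48 ± 0.04 (1.39-fold) with CLI against control (edgeR adjusted p = 4.48e-05). Those comparisons share the control libraries. The further step with CLI, 0.08 (95% interval -0.0048 to 0.17), did not pass the test in the fit without the replicate block (edgeR adjusted p = 0.423). Its value with the block is not given here. Of 95 tested genes within 5 Mb of TGFA, 12 were higher and 7 lower in ERβ1 cells, with a median log2 fold change of -0.01.

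HBEGF (ENSG00000113070, chromosome 5, 140332843 to 140346631, minus strand), the gene of heparin-binding EGF-like growth factor, had 69.7, 65.4 and 66.1 CPM in ERβ1 cells with CLI, 75.5, 78.4 and 82.7 CPM in ERβ1 cells and 70.9, 67.7 and 69.0 CPM in control cells. The ERβ1 libraries without CLI were above all the others, and those with CLI overlapped control. HBEGF rose by 0.19 ± 0.05 on the log2 scale (1.14-fold) in ERβ1 cells against control (edgeR adjusted p = 0.0175), a call that ended without control replicate 2 (adjusted p = 0.0558). With CLI it fell by 0.23 (SE 0.05, 0.85-fold) against ERβ1 cells (edgeR adjusted p = 0.0449). That call was near the threshold: each of the 9 libraries left out in turn ended it, with adjusted p of 0.0575 to 0.158, and so did the fit that blocks on replicate number (adjusted p = 0.1004; 0.231 with the block within the 6 receptor libraries, a setting chosen after seeing the data). Against control the value with CLI was -0.05 (95% interval -0.15 to 0.06). The rise and the fall of HBEGF share the ERβ1 libraries.

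The remaining ligand genes did not pass the test in any comparison. AREG (chromosome 4, 74445134 to 74455009), which encodes amphiregulin, a product that classical oestrogen signalling induces in breast epithelium, overlapped between all groups. It had 27.6, 25.1 and 26.9 CPM in ERβ1 cells with CLI, 27.1, 28.6 and 25.5 CPM in ERβ1 cells and 26.5, 26.2 and 25.7 CPM in control cells, and its log2 fold change in ERβ1 cells against control was 0.05 (95% interval -0.08 to 0.18). EREG (chromosome 4, 74365143 to 74388751), the epiregulin gene beside it, had 6.31, 7.70 and 6.93 CPM in ERβ1 cells with CLI, 5.56, 6.40 and 5.88 CPM in ERβ1 cells and 7.06, 6.91 and 6.29 CPM in control cells. Its groups overlapped, and its log2 fold change with CLI against ERβ1 cells was 0.23 (95% interval -0.003 to 0.46; edgeR adjusted p = 0.398). BTC (chromosome 4, 74744759 to 74794686), the betacellulin gene in the same stretch, was the lowest ligand gene, at 1.37, 0.997 and 1.26 CPM in ERβ1 cells with CLI, 1.85, 1.62 and 1.29 CPM in ERβ1 cells and 1.63, 1.56 and 1.49 CPM in control cells. With CLI all libraries of BTC were below control (log2 fold change -0.37, 95% interval -0.79 to 0.05; edgeR adjusted p = 0.189).

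NRG1 (chromosome 8, 31639386 to 32767959, plus strand), which encodes neuregulin, had 27.5, 14.6 and 21.1 CPM in ERβ1 cells with CLI, 28.0, 18.4 and 20.6 CPM in ERβ1 cells and 33.3, 28.2 and 35.8 CPM in control cells. All receptor libraries were below all control libraries, and in both receptor groups replicate 1 was the highest and replicate 2 the lowest. The log2 fold change was -0.54 ± 0.23 (SE; 95% interval -1.06 to -0.02) in ERβ1 cells against control (edgeR adjusted p = 0.131) and -0.62 ± 0.23 (-1.14 to -0.11) with CLI against control (edgeR adjusted p = 0.0761). DESeq2 called the difference with CLI against control at the same size (adjusted p = 0.0226), and edgeR did so without ERβ1 with CLI replicate 1, at -0.86 (adjusted p = 0.0286). Leaving out each library in turn gave -0.86 to -0.41 there, with edgeR adjusted p of up to 0.1905. In ERβ1 cells against control, those fits gave edgeR adjusted p of 0.0666 to 0.31. The genes most like NRG1 over the 9 libraries were MRPS6 (r = 0.96), DNASE2 (0.95), NSMCE4A (0.95), CEP76 (0.95) and RGS3 (0.94). NSMCE4A had 33.6, 23.2 and 30.7 CPM in ERβ1 cells with CLI, 32.6, 23.1 and 30.2 CPM in ERβ1 cells and 37.9, 35.5 and 40.5 CPM in control cells. It too was lowest in the receptor libraries numbered 2, which were also the most deeply sequenced of their groups.

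ERRFI1 changed in ERβ1 cells and not detectably from control once CLI was present. ERRFI1 (ENSG00000116285, chromosome 1, 8004404 to 8026308, minus strand) had 407, 402 and 415 CPM in ERβ1 cells with CLI, 346, 361 and 355 CPM in ERβ1 cells and 406, 399.8 and 399.7 CPM in control cells. The ERβ1 libraries without CLI lay below all others, and those with CLI overlapped control. ERRFI1 fell by 0.18 on the log2 scale (SE 0.03, 0.881-fold) in ERβ1 cells against control (edgeR adjusted p = 0.00185). With CLI it rose by 0.21 (SE 0.03, 1.153-fold) against ERβ1 cells (edgeR adjusted p = 0.0074). Leaving out any 1 library kept both calls, the second with adjusted p of 0.0158 to 0.0448. The replicate block kept the second call (adjusted p = 0.0360). With the block within the 6 receptor libraries, the size was again 0.21 and the call was lost (adjusted p = 0.112). Against control, the value with CLI was 0.02 (95% interval -0.04 to 0.08). The fall and the rise of ERRFI1 share the ERβ1 libraries.

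ERRFI1 lies in a stretch of chromosome 1 where many genes were lower in receptor cells. Of 89 tested genes within 5 Mb of it, 38 were lower and 5 higher in ERβ1 cells against control, with a median log2 fold change of -0.26, and 39 of the 89 had a value above that of ERRFI1. In ERβ1 cells with CLI, 36 were lower and 6 higher against control, with a median of -0.23. With CLI against ERβ1 cells 1 was higher and 0 lower, the median was -0.03, and 15 of the 89 had a value above that of ERRFI1. Its nearest called neighbour PARK7, a redox protein gene, fell by 0.56 in ERβ1 cells and by 0.59 with CLI, each against control, where ERRFI1 stood at -0.18 and 0.02. The part of the stretch in the fall of ERRFI1 was not tested.

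**Figure D4:**
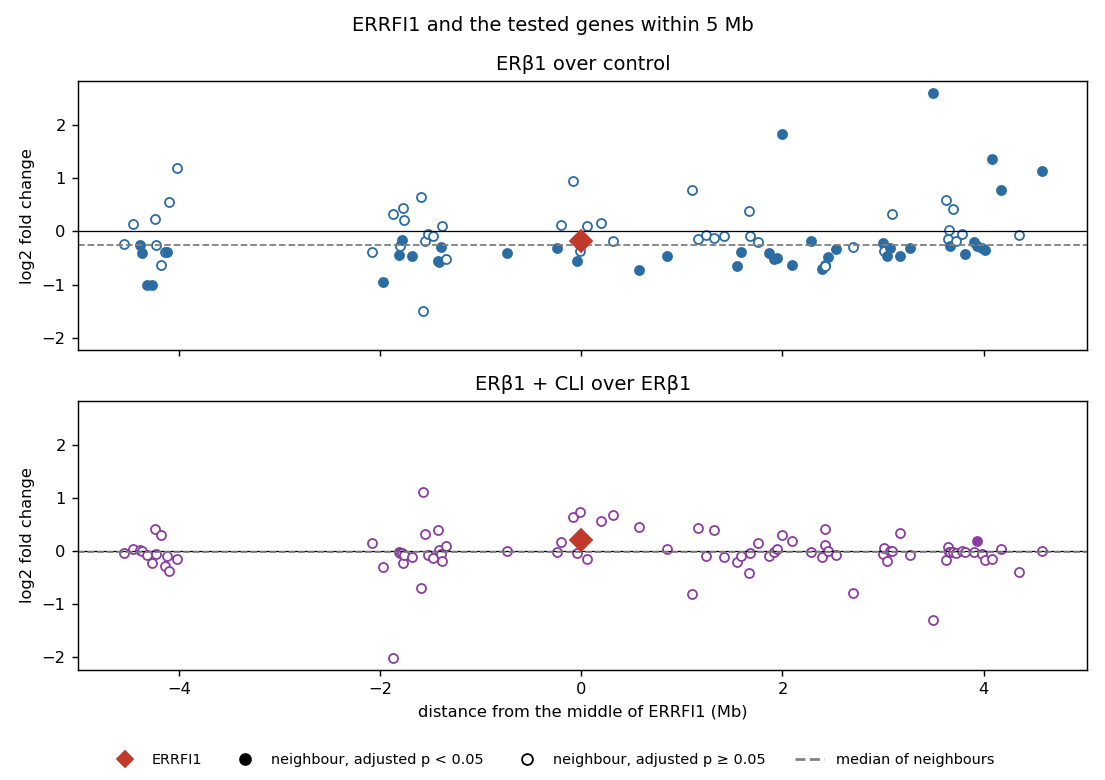
Log2 fold change of ERRFI1 (diamond) and of 89 tested genes within 5 Mb, by distance from the middle of ERRFI1 in Mb, for ERβ1 cells over control (top) and ERβ1 cells with CLI over ERβ1 cells (bottom), with the neighbours' median dashed. The neighbours' median is -0.26 in the top panel and -0.03 in the bottom panel, and ERRFI1 sits at -0.18 and 0.21.

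Of 6 other genes of the family, ERBB4, EGF and NRG2 were tested and none passed in any comparison, with 0 values at an unadjusted p under 0.05 in edgeR. EGF, the founding ligand gene, and ERBB4 are named outside the rule, after their values were seen. EGF had 2.18, 1.49 and 4.95 CPM in ERβ1 cells with CLI, 1.92, 2.30 and 3.58 CPM in ERβ1 cells and 4.11, 6.28 and 3.54 CPM in control cells, so its groups overlapped. ERBB4, the other neuregulin receptor gene, was at most 0.813 CPM in any library, and EPGN, NRG3 and NRG4 were too low to be tested.

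Of 12 genes tested that act on ligand release, 3 were higher and 1 lower in ERβ1 cells against control, where 21.4% of all genes were called, and 8 did not pass. With CLI 4 were higher and 1 lower against control, where 26.5% of all genes were called, and 7 did not pass. With CLI against ERβ1 cells 0 of the 12 passed. ADAM12, which encodes a protease able to shed HB-EGF, averaged 9.22 ± 0.197 CPM in ERβ1 cells with CLI, 7.43 ± 0.331 CPM in ERβ1 cells and 1.66 ± 0.285 CPM in control cells (SD, n = 3 each). It rose by 2.47 with CLI and by 2.16 in ERβ1 cells on the log2 scale, each against control (edgeR adjusted p = 2.75e-06 and 8.88e-06). ADAM19, which encodes a protease able to shed neuregulin, rose by 0.72 and 0.60 in the same comparisons. TIMP3, which encodes an inhibitor of ADAM17 and other metalloproteases, fell by 0.81 and 0.69. FRMD8, whose product stabilises the iRhom partners of ADAM17, rose by 0.38 with CLI and 0.36 in ERβ1 cells, each against control. ADAM10, a sheddase of BTC and EGF, rose by 0.24 with CLI against control, and its 0.09 in ERβ1 cells was not called. ADAM17, which sheds TGF alpha and amphiregulin and is named here after its values were seen, had 72.7, 70.1 and 72.0 CPM in ERβ1 cells with CLI, 67.2, 70.5 and 68.8 CPM in ERβ1 cells and 74.5, 71.3 and 76.3 CPM in control cells, with log2 fold changes of -0.05 with CLI and -0.11 in ERβ1 cells against control (edgeR adjusted p = 0.412 and 0.0896). FURIN, a proprotein convertase gene named after its values were seen, had 129, 129 and 124 CPM with CLI, 865, 125 and 119 CPM in ERβ1 cells and 109, 550 and 470 CPM in control cells, so its ERβ1 and control libraries differed several-fold within each group.

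Of 22 adaptor and kinase genes tested, 0 were higher and 4 lower in ERβ1 cells against control, 3 were higher and 2 lower with CLI against control, and 0 passed with CLI against ERβ1 cells. These counts are near the background, since 21.4%, 26.5% and 1.47% of all genes were called in those comparisons. PTPN11, which encodes the phosphatase SHP2 that links the receptors to RAS, fell by 0.25 with CLI and by 0.23 in ERβ1 cells, each against control (edgeR adjusted p = 0.000979 and 0.00205). PIK3R1, a regulatory subunit gene of PI3K, fell by 0.71 in ERβ1 cells, the exchange factor gene SOS1 by 0.21 and the catalytic subunit gene PIK3CA by 0.13. With CLI against control none of these was called, at -0.61, -0.04 and -0.04 in the same order. SOS2 rose by 0.19 and STAT3 by 0.13 with CLI against control, while AKT1 fell by 0.21.

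Of 16 genes of receptor degradation and inhibition tested, 1 was higher and 4 lower in ERβ1 cells against control, 1 higher and 1 lower with CLI against ERβ1 cells, and 2 higher and 5 lower with CLI against control. Of all genes, 21.4%, 1.47% and 26.5% were called in those comparisons. SH3KBP1, which encodes the CIN85 adaptor that helps CBL take EGFR into endosomes, averaged 297 ± 4.42 CPM in ERβ1 cells with CLI, 242 ± 6.97 CPM in ERβ1 cells and 180 ± 5.98 CPM in control cells (SD, n = 3 each). It rose by 0.29 with CLI against ERβ1 cells (edgeR adjusted p = 0.00437; 0.0265 with the replicate block, and 0.0645 with the block within the 6 receptor libraries) and by 0.43 in ERβ1 cells against control (edgeR adjusted p = 6.91e-05). With CLI against control SH3KBP1 rose by 0.72 (edgeR adjusted p = 2.27e-06). UBASH3B, whose product blocks CBL-driven loss of EGFR, fell by 0.19 with CLI against ERβ1 cells (edgeR adjusted p = 0.0343), a call that both blocked fits lost (adjusted p = 0.0711 and 0.189). Against control, the phosphatase gene PTPN1 fell by 0.31 with CLI and 0.16 in ERβ1 cells, and the phosphatase gene PTPRJ by 0.29 and 0.13. The endocytosis gene EPS15 fell by 0.30 with CLI and 0.31 in ERβ1 cells, and LRIG3 by 1.10 and 0.95.

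Of 12 tested genes known to follow ERK activity, 2 were higher and 4 lower in ERβ1 cells against control, 0 higher and 1 lower with CLI against ERβ1 cells, and 2 higher and 6 lower with CLI against control, where 21.4%, 1.47% and 26.5% of all genes were called. The genes of this list that did not pass numbered 6, 11 and 4. EGR1, a transcription factor gene, averaged 77.0 ± 5.75 CPM in ERβ1 cells with CLI, 83.2 ± 7.33 CPM in ERβ1 cells and 21.3 ± 0.641 CPM in control cells (SD, n = 3 each). EPHA2, an ephrin receptor gene, fell by 0.61 with CLI and by 0.54 in ERβ1 cells against control (edgeR adjusted p = 9.85e-07 and 3.87e-06). SPRY2, which encodes a feedback inhibitor of receptor signalling, fell by 0.69 and 0.52 in the same comparisons, and PHLDA1 fell by 0.31 and 0.28. SPRY4, of the same gene family and named after its values were seen, rose by 0.22 in both (edgeR adjusted p = 0.00559 and 0.00824). FOSL1 is also on the list of basal-like and mesenchymal markers. Against control it fell by 0.49 with CLI and by 0.27 in ERβ1 cells (edgeR adjusted p = 4.83e-05 and 0.00199). FOSL1 fell by 0.22 with CLI against ERβ1 cells (edgeR adjusted p = 0.0377), a call that both blocked fits lost (adjusted p = 0.1004 and 0.145). The medians of the lists from ligand release to ERK activity stayed between -0.13 and 0.17 on the log2 scale in every comparison. Those over all genes rounded to 0.00. For the 3 other family genes tested, medians against control were -0.84 in ERβ1 cells and -0.62 with CLI. Their median was 0.14 with CLI against ERβ1 cells. With CLI against ERβ1 cells, the replicate block left 1 pathway gene called higher and 0 lower, and the block within the 6 receptor libraries left 0 in either direction. These lists were chosen with earlier results of these data known.

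**Figure D5:**
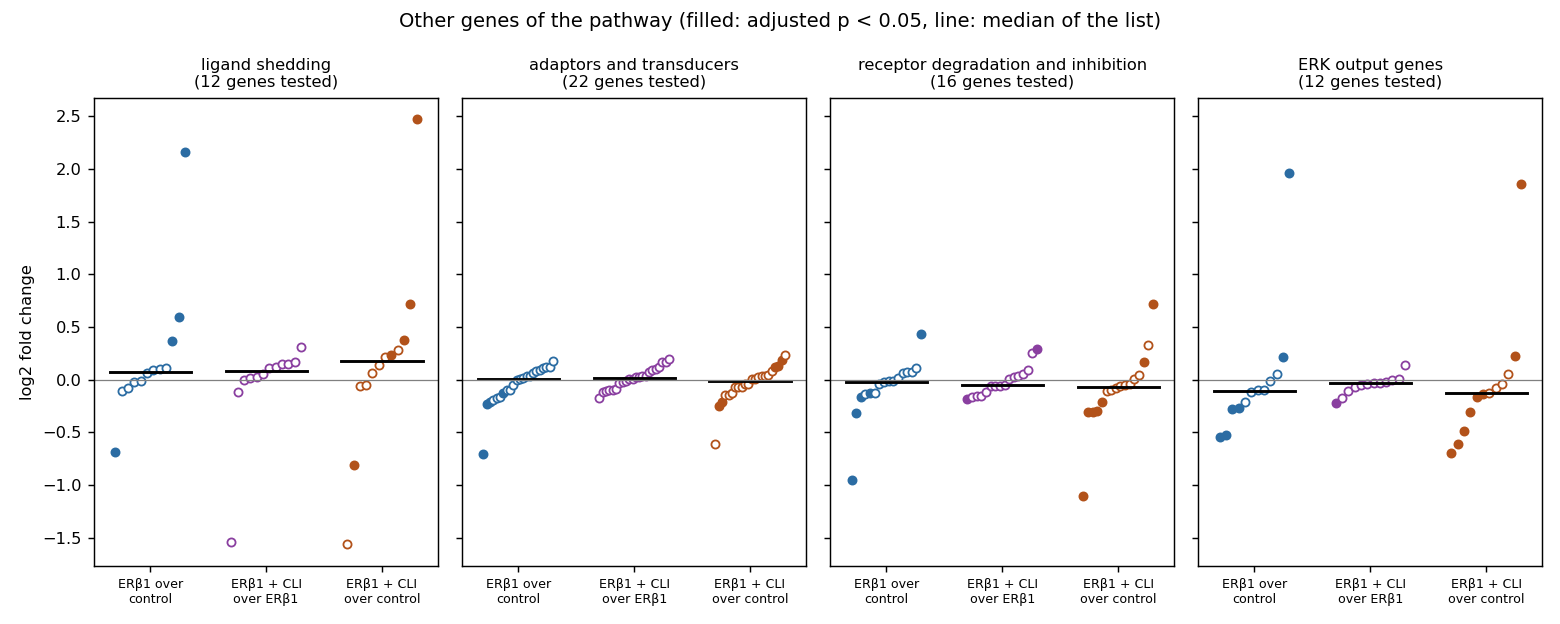
Log2 fold change of the tested genes of each pathway list in the 3 comparisons, 1 point per gene, filled at an adjusted p under 0.05, with the list's median as a line. ADAM12 at 2.16 and 2.47 and EGR1 at 1.96 and 1.85 are the highest points, and most points with CLI over ERβ1 cells are open.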

How the data were processed

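Libraries were made with a kit that marks strand and read from one end on 1 NovaSeq lane, per the labels' protocols. The submitters' processing notes list Salmon 1.2.1, Trimmomatic 0.38, edgeR 3.30.3, bcl2fastq 2.20, FastQC and R 4.0.2, with the build GRCh38. For the annotation release and counting settings, nothing is given in the sources used here. The authors deposited estimated counts per gene, which were rounded to whole numbers for the tests, and log2 CPM values of 18934 genes, which served as an alternative. Some labels number the cell line upward from sample to sample, but since the protocol for growth gives only MDA-MB-231, every sample was read as that line.

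One edgeR 4.0.16 quasi-likelihood fit (R 4.3.3, TMM scaling, filterByExpr) covered all 9 libraries and 17058 genes. P-values are 2-sided with Benjamini-Hochberg adjustment over these genes, and called genes have an adjusted p under 0.05. Alternatives were other scalings and filters, DESeq2 1.42.0, limma 3.58.1, fits of 6 libraries, a replicate block and each library left out. Genes were named by rule: all members, up to 4 called genes with the smallest adjusted p per pathway list and comparison, and the 5 genes most like each of the 2 members whose group means spanned the widest range. The members and lists were chosen with earlier results of these data known.

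Same-numbered libraries of ERβ1 cells with CLI and ERβ1 cells deviated together over 11196 genes (r = 0.178, 0.499 and 0.251). The replicate block is therefore given beside the called members and the named pathway genes called in that comparison. Values there of other members and pathway genes are from the fit without the block. The pairing comes from the numbers in the sample titles. Libraries 1 and 3 also correlated across numbers (0.208 and 0.210). No 2 libraries held identical values. Motifs and positions came from RefSeq GRCh38.p14 and GENCODE 29, both on GRCh38.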

Additional observations from a re-analysis of the deposited data

How the results depend on the processing

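Members' log2 fold changes kept their direction and side of the threshold in 539 of 580 recomputed values. Among the rest, 17 changed sign, 16 lost a call and 8 gained one. Results that were not called and stayed so count among the 539. The rises of TGFA and the fall of ERRFI1 against control kept their calls under every alternative run. No scaling moved the median of all genes by over 0.02. With CLI against ERβ1 cells, HBEGF was no longer called, so that 0 members were lower, with upper quartile scaling, with the 6 libraries alone (adjusted p = 0.114, 29 genes lower in all), with the replicate block, and with receptor libraries 1 and 3 alone, a setting chosen after seeing the data (56 genes higher, 16 lower). DESeq2 called 366 genes higher and 275 lower there. In the same comparison the replicate block gave 104 genes higher and 32 lower, and within the 6 libraries 60 and 6, with 0 members higher and 0 lower. Against control, 2 members were lower in ERβ1 cells with DESeq2 (EGFR and ERRFI1) and with the replicate block (NRG1 at -0.56, adjusted p = 0.0269, and ERRFI1). With CLI against control 1 was lower with DESeq2 (NRG1), with the 6 libraries alone (ERBB3, adjusted p = 0.0160) and with the block (NRG1 at -0.66, adjusted p = 0.0117). The shares of all genes called against control under these settings are not given here, so these counts of members have no background beside them. Same-numbered libraries did not deviate together in the comparisons with control (r of -0.105 to 0.0404), and there the block moved no count of genes called by over 1.5 times. In ERβ1 cells against control ERBB3 turned to -0.58 with limma on the deposited log2 CPM and to -0.46 with the block. With receptor libraries 1 and 3 alone, AREG turned to 0.0523 and NRG1 to 2e-04 with CLI against ERβ1 cells, and EREG to -0.0289 with CLI against control. The cause was not tested.

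Leaving out 1 library at a time gave these ranges. In ERβ1 cells against control, 1160 to 1783 genes were lower (1160 without control replicate 2), 1 to 2 members were higher and 1 to 2 lower, ERBB3 lay between -1.64 and 0.75, and BTC between -0.0889 and 0.16. With CLI against ERβ1 cells, 91 to 151 genes were higher and 23 to 60 lower, and 0 members were lower each time. There NRG1 lay between -0.33 and 0.12, ERBB2 between -0.0785 and 0.17, AREG between -0.0753 and 0.0125, and ERBB3 between -1.99 and 0.40. With CLI against control, 0 to 1 members were lower, AREG lay between -0.0056 and 0.0637, and EREG between -0.025 and 0.12. Depth was high for most members, and BTC, EREG and ERBB3 rest on the fewest counts.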
